A study of Homo sapiens with 13 samples.

Results

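The cell cycle genes followed here are 60 genes of the G1/S and G2/M programmes, taken from a list of names and kept where a row of that name with an Ensembl gene identifier stood in both count tables. Of the 60, 59 were found among 61541 human features, and 58 reached the minimum of a mean of 1 CPM (counts scaled to a common library total) in each experiment. The CDK inhibitor gene CDKN2C lay under that minimum in both, and FOXM1-AS1 had no row of its own and is given no value.

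RNA-seq was performed on RUES2, an established human embryonic stem cell line, in which SMAD4, the shared partner of the BMP and Nodal SMADs, was fused to GFP. The time series held 7 libraries, a pair for 0 h and a single one for each of 4, 12, 20, 28 and 42 h. All were labelled with 100 ng/mL BMP4 and 5 µM IWP2, an inhibitor of Wnt secretion. The 0 h pair, labelled alike, was read here as cells at the start of treatment. The dose response held 6 libraries at 5 h: 5 with the same BMP4 and IWP2 and 0, 10, 30, 100 or 300 nM of the BMP receptor inhibitor LDN-193189 (LDN), and 1 of untreated cells in mTeSR, the maintenance medium. ROCK inhibitor was in the medium throughout. The time series used ribosomal RNA depletion and the dose response polyA selection, with different RNA extraction kits, so levels are compared within each experiment only. There was no untreated library after 0 h and none with IWP2 alone, so BMP4, IWP2 and time in culture cannot be told apart in the time series. In the dose response the untreated library was labelled with neither BMP4 nor IWP2, so their parts cannot be told apart in comparisons with it. Nothing says that the 0 h replicates came from separate cultures, and the p-values then measure only the spread between these libraries.

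Library totals ran from 37957385 to 71333471 counts over time and from 28742690 to 33989998 over dose, with 15600931 in the untreated library. Mitochondrial genes took 7.60% and 4.29% of counts at 0 h, 2.01% to 4.23% at later times, 4.22% to 4.49% in the LDN series and 7.89% in the untreated library. At 0 h the pluripotency factor genes NANOG and SOX2 stood at 144 and 113 CPM and at 383 and 365 CPM. Both fell over time (adjusted p = 0.00147 and 0.000584), POU5F1 stayed between 986 and 1675 CPM, and the amnion genes ISL1 and HAND1 rose (adjusted p = 0.000327 and 0.00244). In bulk RNA, fewer cells of a type and less RNA per cell cannot be told apart, nor can a change in the share of cells in a phase be told from a change within cells. Levels below are CPM scaled by TMM, a factor per library that sets the bulk of genes level.

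Cells enter S phase when cyclin D with CDK4 or CDK6, and then cyclin E with CDK2, phosphorylate the retinoblastoma family and free E2F factors, which switch on genes for DNA replication. Genes of G2 and mitosis are switched on later by the MuvB complex with MYBL2. CDK inhibitors restrain the kinases of the cycle. Human pluripotent cells are known for a short G1 phase and high expression of the replication machinery, and the D-type cyclins are the point where growth factor signals enter the cycle.

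Many promoters of cell cycle genes are known to carry short motifs for these regulators, and 6 are printed because their genes carry the results below: a D-type cyclin, an E2F factor, a helicase subunit, 2 mitotic genes that changed over time and 1 that followed the LDN dose. Each window runs from 150 bases before to 30 after a RefSeq start of the gene on GRCh38.p14, 180 bases in all. This need not be the outer start in the gene positions given with the results below. That outer start is 42050357 for CCND3 and 163460203 for HMMR, both outside the printed windows. For ANLN it is 36389821, inside the window but not at the start used. Other starts were not searched for motifs. Capitals mark an E2F motif (TTTCGCGC, TTTGGCGC or TTTCCCGC), a cell cycle homology region or CHR (TTTGAA or TTCGAA), which MuvB binds, or a CCAAT box, each on either strand.
CCND3, chr6:42048659-42048838, minus strand: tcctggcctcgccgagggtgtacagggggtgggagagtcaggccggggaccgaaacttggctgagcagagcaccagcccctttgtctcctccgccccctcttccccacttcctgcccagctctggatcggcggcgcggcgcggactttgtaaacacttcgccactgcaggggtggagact
E2F2, chr1:23531204-23531383, minus strand: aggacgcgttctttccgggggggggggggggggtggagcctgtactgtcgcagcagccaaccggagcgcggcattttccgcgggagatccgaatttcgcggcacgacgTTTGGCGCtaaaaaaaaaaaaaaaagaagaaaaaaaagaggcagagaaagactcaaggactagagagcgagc
MCM6, chr2:135876414-135876593, minus strand: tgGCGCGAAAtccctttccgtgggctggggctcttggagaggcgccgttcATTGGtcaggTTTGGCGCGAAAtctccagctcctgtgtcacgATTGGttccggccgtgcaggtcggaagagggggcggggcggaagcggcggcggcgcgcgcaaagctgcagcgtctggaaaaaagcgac
BUB1, chr2:110678034-110678213, minus strand: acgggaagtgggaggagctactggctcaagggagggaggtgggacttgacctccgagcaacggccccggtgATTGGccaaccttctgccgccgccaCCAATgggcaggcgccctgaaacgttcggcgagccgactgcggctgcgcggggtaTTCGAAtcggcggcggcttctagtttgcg
ANLN, chr7:36389712-36389891, plus strand: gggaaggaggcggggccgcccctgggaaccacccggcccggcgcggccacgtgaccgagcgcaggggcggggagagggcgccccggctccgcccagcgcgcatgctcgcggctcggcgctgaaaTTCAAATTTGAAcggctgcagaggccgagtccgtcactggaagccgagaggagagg
HMMR, chr5:163460482-163460661, plus strand: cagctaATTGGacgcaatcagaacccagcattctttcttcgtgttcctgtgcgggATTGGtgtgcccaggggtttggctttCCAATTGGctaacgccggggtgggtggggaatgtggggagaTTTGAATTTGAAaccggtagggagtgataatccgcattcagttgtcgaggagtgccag

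A promoter was found for 48 of the genes. An E2F motif stood in 14 of the 48 (29.2%) against 1.85% of 27305 promoters of the same length, a CHR in 13 (27.1%) against 9.41%, and a CCAAT box in 26 (54.2%) against 26.4%. The shares differed by role: 8 of 10 replication genes held an E2F motif and 0 a CHR, while 4 of 5 mitotic kinase and checkpoint genes and 6 of 10 kinetochore and spindle genes held a CHR and 0 an E2F motif. Other groups showed no such split: of 6 G2/M cyclin, CDK1 and CDC25 promoters 1 held a CHR and 1 an E2F motif, and of 9 promoters of pocket proteins, E2F factors and MuvB genes 2 held a CHR and 4 an E2F motif. HMMR showed the CHR letters in tandem, and MCM6 held an E2F motif in which the letters on both strands ran into each other. The CCND3 window, like those of MYBL2, CDC25B and CDK6, held none of the 3 motifs. These are matches of letters, not sites shown to be bound.

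A few regulators changed by 2- to 7-fold over 42 h, while many genes of replication and mitosis moved little. At every later time 33 of the 58 genes lay within 0.5 log2 of the 0 h mean, and 25 were at least 0.5 away at some time, against 70.4% of all genes tested. This count of 25 depended on the 0 h pair, since it was 31 without replicate 1, against 70.9% of all genes, and 31 without replicate 2, against 75.1%. With both replicates, a distance of at least 1 log2 was reached by 10 genes, against 36.6% of all genes. Those with the smallest distance were genes of every phase. MCM7, a helicase subunit, was at most 0.16 log2 from the 0 h mean, although its 0 h replicates differed by 0.51 log2. CDC25A, the G1/S phosphatase, was at most 0.18 away, and TOP2A, the topoisomerase of dividing cells, 0.20. CCNA2, or cyclin A2, reached 0.22 and the mitotic cyclins CCNB1 and CCNB2 0.24 each. The spindle gene NUSAP1 reached 0.24, although its 0 h replicates differed by 0.62 log2. With edgeR's quasi-likelihood test, in which the trend is the log2 change of a line fitted on hours over 42 h, 17 of the 58 passed an adjusted p of 0.05 against 36.7% of all genes, 9 higher (19.2% of all genes) and 8 lower (17.5%). Neither share was above that of all genes. CDKN2C reached the minimum once the 42 h library or either 0 h replicate was left out, so those fits tested 59 genes. Without the 42 h library 7 were higher (11.7% of all genes) and 2 lower (8.65%), and without 0 h replicate 2 it was 14 (21.4%) and 12 (19.8%). The lower count was 4 without 0 h replicate 1 (12.5%), the 4 h library (13.3%) or the 28 h library (12.9%). On library totals, without TMM, the median of all genes at 42 h over 0 h moved from -0.01 to -0.25 log2, and the split became 7 higher (13.3% of all genes) and 15 lower (25.5%).

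**Figure D1:**
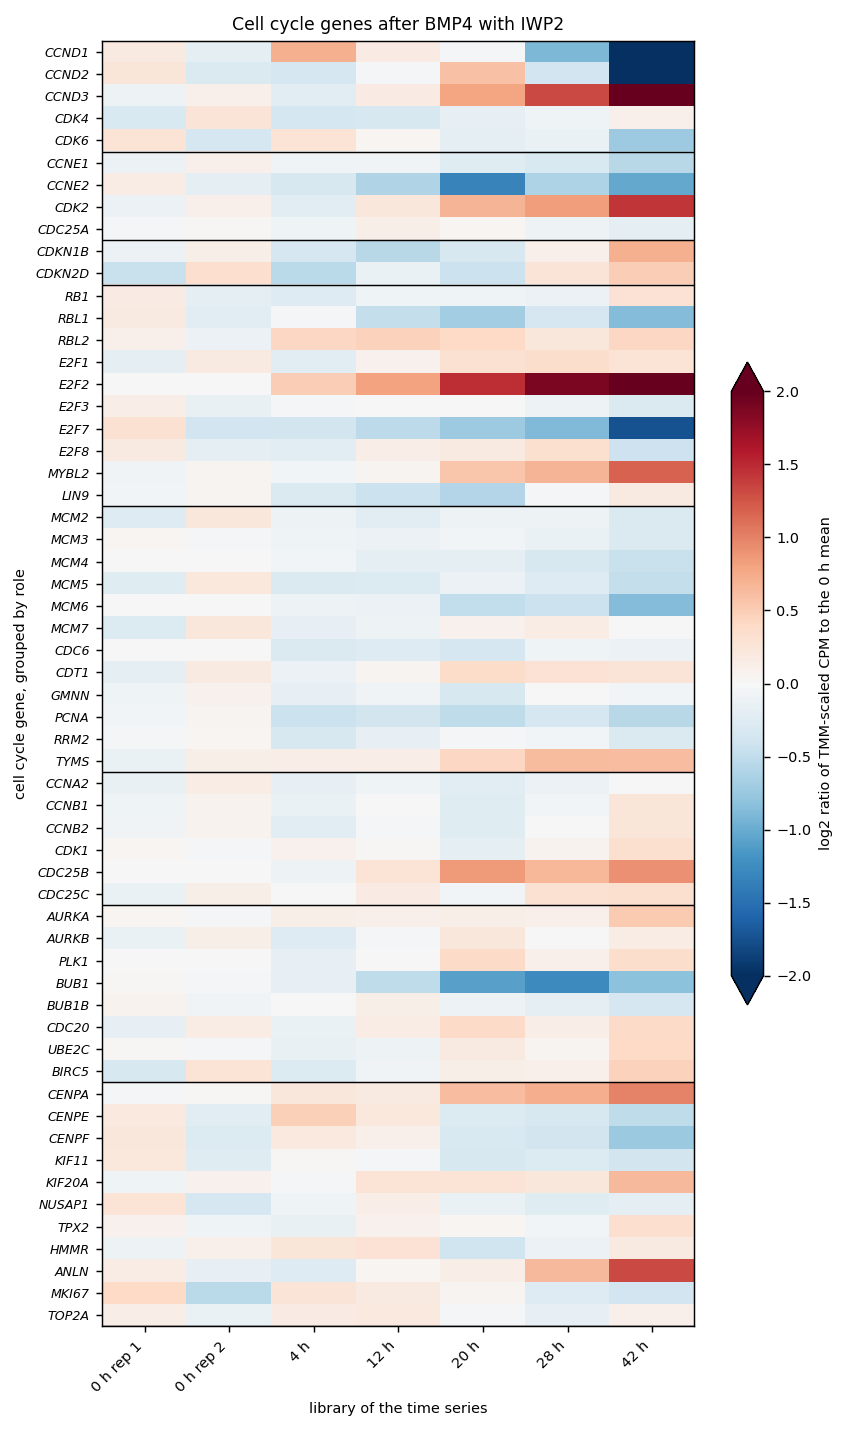
Heat map of the 58 tested cell cycle genes (rows, grouped by role with black lines) in the 7 time-series libraries (columns). Colour gives the log2 ratio of TMM-scaled CPM to the mean of the 0 h replicates, cut at -2 and 2; most rows stay pale, and CCND1, CCND2, CCND3, E2F2 and E2F7 hold the deepest colours at 42 h.

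The D-type cyclins, which activate CDK4 and CDK6 in G1, changed places. CCND1 (ENSG00000110092, chr11:69641156-69654474 on GRCh38) was at 165 and 127 CPM at 0 h, then 238, 165, 144, 78.1 and 20.4 CPM at 4, 12, 20, 28 and 42 h. It peaked at 4 h and at 28 and 42 h lay under both 0 h libraries, 7.15-fold under their mean at 42 h. Its trend was -2.63 log2 over 42 h (SE 0.68, adjusted p = 0.0183), and its curvature, the quadratic term of the same hours, was -4.90 (adjusted p = 0.00884), which marks a level that bends downward. The trend passed only with the 42 h library, since without it the value was -1.31 (adjusted p = 0.156). The curvature call was lost without the 20 h library (-4.77) or the 42 h library (-6.65). At 28 h the change against 0 h was already -0.90 (adjusted p = 0.0468), with time as a factor. The error there was the spread of the 0 h pair, largely pooled over genes, and each lone library was assumed to share it. CCND1 shares 497 exonic bases with LTO1 on the other strand, a gene at no more than 20.2 CPM over time, and whether counting used strand is not given in the sources used here.

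CCND2 (ENSG00000118971, chr12:4269771-4305353) held on longer. It was at 200 and 140 CPM at 0 h, then 134, 168, 255, 130 and 35.8 CPM. The 20 h library was the highest and the 42 h library the lowest, 4.74-fold under the 0 h mean. The linear trend of -1.33 did not pass (adjusted p = 0.213), though it did with DESeq2 (-1.34, adjusted p = 0.0472), and turned to 0.21 without the 42 h library. The curvature passed (-5.36, adjusted p = 0.0155), a call lost without the 20 h library (-4.01) or the 42 h library (-3.56). The 42 h change was -2.24 (adjusted p = 2.41e-08).

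CCND3 (ENSG00000112576, chr6:41934934-42050357) ran the other way. Its level was 18.7 and 21.6 CPM at 0 h, then 17.5, 22.5, 34.9, 50.2 and 102 CPM. From 12 h on every library lay above both 0 h libraries, each higher than the one before, and the 42 h level was 5.08-fold the 0 h mean. The trend was 2.38 (SE 0.23, adjusted p = 0.000207) and passed with any 1 library left out.

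Per length, in the deposited FPKM, the order of the 3 cyclins therefore turned over. At 0 h CCND1 was at 52.0 and 44.6 FPKM, CCND2 at 35.0 and 24.4 and CCND3 at 11.4 and 14.7. At 28 h they stood at 39.2, 24.7 and 31.1 FPKM, and at 42 h at 10.9, 6.29 and 54.4, so that CCND3 was highest. The kinases they activate kept their order in every library, with CDK4 above CDK6. CDK4 was at 103 and 167 FPKM at 0 h, and every later library lay between these. In TMM-scaled CPM the 4 and 12 h libraries, at 131 and 133, lay just under both 0 h libraries, at 135 and 199. The CDK4 trend of 0.16 did not pass (adjusted p = 0.632). CDK6 had 108 and 70.5 CPM at 0 h and 53.7 CPM at 42 h, a trend of -0.71 that did not pass either (adjusted p = 0.0654), and its 0 h replicates differed by 0.61 log2.

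**Figure D2:**
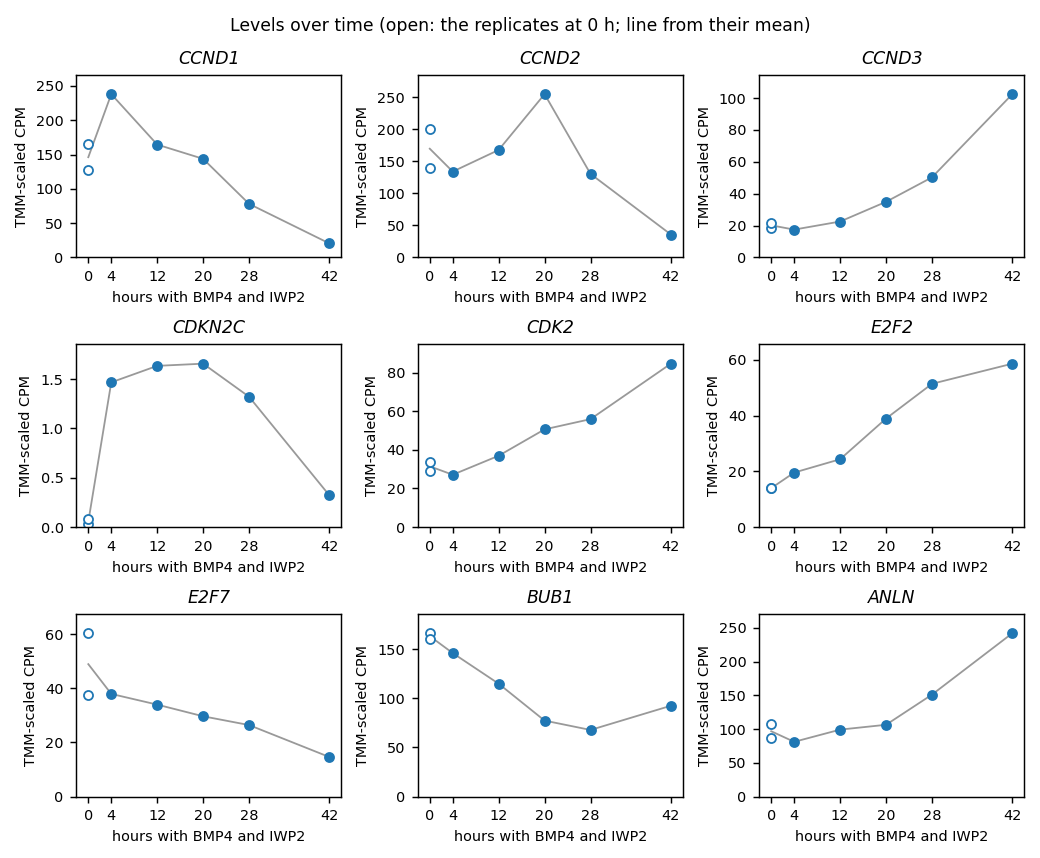
TMM-scaled CPM (vertical axis, from 0) against hours with BMP4 and IWP2 for 9 genes; open circles are the 0 h replicates, filled circles the single libraries at later times, and lines start at the 0 h mean. CCND1 falls to 20.4 CPM while CCND3 climbs to 102 CPM, and CDKN2C rises by 4 h and is low again at 42 h.

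CDKN2C (ENSG00000123080, chr1:50960745-50974634), which encodes the CDK4 and CDK6 inhibitor p18-INK4C, was the least expressed of the genes and the one with the sharpest early change. It had 1 and 6 counts at 0 h, then 72, 96, 100, 76 and 17 counts from 4 to 42 h. In TMM-scaled CPM these were 0.0259 and 0.0819, then 1.47, 1.63, 1.66, 1.32 and 0.32. Both 0 h libraries lay under every later one. The 4 h level was 23.4-fold that of the 0 h libraries together (95% interval 10.8 to 60.4, exact binomial, counting error only), and at 42 h it was 5.12-fold (2.02 to 14.6). Since the gene is under the minimum, it was also fitted with no filter, a setting added after its values were seen: its curvature was -12.20 (SE 2.46, adjusted p = 0.00116, edgeR, 39033 genes tested) and its trend 0.96 (adjusted p = 0.752).

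The other inhibitors were CDKN1B, which encodes p27, and CDKN2D, which encodes p19-INK4D. CDKN1B was at 24.9 and 29.1 CPM at 0 h, then 21.4, 18.3, 21.7, 29.0 and 44.4 CPM. It dipped under both 0 h libraries from 4 to 20 h and was above both at 42 h, and its curvature was 2.63 (adjusted p = 0.0351), a call lost without any 1 of 5 of the 7 libraries and on library totals (adjusted p = 0.0549). CDKN2D stayed at 1.06 to 2.19 CPM and passed no test over time.

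CDK2, the kinase that cyclin E activates, rose. CDK2 (ENSG00000123374, chr12:55966781-55972789) was at 29.0 and 33.9 CPM at 0 h, then 27.1, 36.9, 50.6, 55.9 and 84.7 CPM. From 12 h on it was above both 0 h libraries, and at 42 h 2.69-fold their mean (trend 1.50, SE 0.18, adjusted p = 0.000584). CCNE1, or cyclin E1, fell by 0.53 log2 (adjusted p = 0.0256), a call lost when the 4, 12, 28 or 42 h library was left out. CCNE2, or cyclin E2, was at 6.25 and 4.97 CPM at 0 h and 2.22 CPM at 20 h. Against 0 h it was at -1.33 log2 at 20 h (adjusted p = 0.00932), -0.61 at 28 h (adjusted p = 0.331) and -1.02 at 42 h (adjusted p = 0.0335), and its trend of -0.9998 did not pass (adjusted p = 0.0605). CDK2 shares 89 exonic bases with PMEL (up to 52.9 CPM over time) and CCNE2 1629 with INTS8 (up to 58.3 CPM), both on the other strand. INTS8 thus stood far above CCNE2, and with strand use not given its part in the CCNE2 values was not tested.

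Of the 10 pocket proteins, E2F factors and MuvB genes, 2 rose, 2 fell and 6 did not pass. Among all genes 19.2% rose and 17.5% fell. E2F2 (ENSG00000007968, chr1:23506438-23531233), an activator of S-phase genes, was at 14.0 and 13.9 CPM at 0 h, then 19.5, 24.3, 38.9, 51.4 and 58.6 CPM. Every later library was above both 0 h libraries, by 4.20-fold at 42 h, and the trend was 2.23 (SE 0.25, adjusted p = 0.000408). It passed with each library left out, with values of 2.11 to 2.82.

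E2F7 (ENSG00000165891, chr12:77021248-77065569), a repressor in the same family, was at 60.4 and 37.5 CPM at 0 h, then 38.0, 34.0, 29.7, 26.4 and 14.6 CPM. From 12 h on it was below both 0 h libraries, although these differed by 0.69 log2, and at 42 h it was 3.35-fold under their mean. Its trend was -1.56 (SE 0.27, adjusted p = 0.0033). Its close relative E2F8 had a trend of -0.07 (adjusted p = 0.867), and E2F1 and E2F3, activators like E2F2, had 0.44 (adjusted p = 0.115) and -0.23 (adjusted p = 0.274).

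MYBL2, the MuvB partner that turns on mitotic genes, was at 293 and 319 CPM at 0 h, then 294, 318, 451, 490 and 691 CPM. It was above both 0 h libraries from 20 h on and 2.26-fold their mean at 42 h (trend 1.21, SE 0.16, adjusted p = 0.00104). LIN9, a core MuvB subunit, had a trend of 0.17 (adjusted p = 0.635). Among the retinoblastoma family, RBL1 (p107) fell by 0.81 log2 (adjusted p = 0.032), a call lost without 0 h replicate 1 or the 4 or 42 h library, while RB1 had 0.25 (adjusted p = 0.353) and RBL2 (p130) 0.26 (adjusted p = 0.391).

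The 12 replication genes held the most abundant of all: MCM5 and MCM7, helicase subunits, had the highest levels per length at 0 h, 299.9 and 242 FPKM on average. Over time 1 rose, 2 fell and 9 did not pass, where 19.2% of all genes rose and 17.5% fell. The median trend was -0.17 against -0.00471 for all genes. MCM6 was at 229 CPM in both 0 h libraries, then 214, 210, 162, 170 and 125 CPM, all lower (trend -0.84, SE 0.16, adjusted p = 0.00459), though the call was lost without the 42 h library. MCM4 fell by 0.44 log2 (adjusted p = 0.0367), a call lost in 5 of the 7 fits that each left out 1 library. The MCM subunits form 1 hexamer, and the other members of it, MCM2, MCM3, MCM5 and MCM7, had trends of -0.21, -0.23, -0.35 and 0.13, none past the test.

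TYMS, which makes thymidylate, rose by 0.70 log2 (adjusted p = 0.0125) and shares 967 exonic bases with ENOSF1 on the other strand, at up to 41.5 CPM. The licensing factors CDC6 and CDT1, the licensing inhibitor GMNN, the ribonucleotide reductase subunit RRM2 and the sliding clamp PCNA had trends between -0.46 (PCNA) and 0.38 (CDT1) and did not pass.

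In G2/M, 1 of 6 cyclin, CDK1 and CDC25 genes rose and 0 fell, against 19.2% and 17.5% of all genes. CDC25B, the phosphatase that starts the activation of CDK1, was at 39.6 and 39.8 CPM at 0 h, then 37.0, 48.1, 71.4, 62.6 and 75.2 CPM, above both 0 h libraries from 12 h on (trend 1.06, SE 0.21, adjusted p = 0.00588). CDK1, the mitotic kinase itself, ran from 42.7 to 61.5 CPM with a trend of 0.22 (adjusted p = 0.343).

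Among the mitotic kinases and checkpoint genes, 1 of 8 changed, against 36.7% of all genes. BUB1 (ENSG00000169679, chr2:110637528-110678063), a kinase of the spindle checkpoint whose promoter is printed above, was at 166 and 160 CPM at 0 h, then 146, 115, 77.3, 67.8 and 92.4 CPM. Every later library lay under both 0 h libraries, with the lowest at 28 h (-1.27 log2, adjusted p = 0.00251). Its trend was -1.06 (SE 0.29, adjusted p = 0.0239) and its curvature 2.48 (adjusted p = 0.03), but the trend call was lost without either 0 h replicate or the 28 h library, and the curvature without any of 4 libraries, with 0.35 left when 42 h was removed. Its partner BUB1B had a trend of -0.35 (adjusted p = 0.105). AURKA, AURKB, PLK1, CDC20, UBE2C and BIRC5, the kinases, ubiquitin ligase factors and chromosomal passenger gene of mitosis, had trends of 0.21 to 0.48, none past the test.

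Of the 11 kinetochore, spindle, chromosome and cytokinesis genes, 3 rose and 1 fell, against 19.2% and 17.5% of all genes. ANLN (ENSG00000011426, chr7:36389821-36453791), the actin-binding scaffold of the cleavage furrow, was at 107 and 86.2 CPM at 0 h, then 81.1, 99.2, 106, 151 and 242 CPM. Only the 28 and 42 h libraries lay above both 0 h libraries, and without the 42 h library the trend of 1.32 (SE 0.23, adjusted p = 0.00321) was 0.91 (adjusted p = 0.075). CENPA, the centromeric histone, was at 7.36 and 7.58 CPM at 0 h, then 8.72, 8.43, 11.4, 12.3 and 14.8 CPM (trend 0.997, SE 0.19, adjusted p = 0.00478). Every later library was above both 0 h libraries, but CENPA shares 138 exonic bases on its own strand with SLC35F6, which reached 54.2 CPM.

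KIF20A, a kinesin of cytokinesis, rose by 0.59 log2 (adjusted p = 0.0176), and CENPF, a kinetochore protein, fell by 0.81 (adjusted p = 0.0284). Both calls were lost without 0 h replicate 1, the 4 h or the 42 h library, and that of CENPF also without the 28 h library. MKI67, the proliferation antigen Ki-67, had 443 and 231 CPM at 0 h, which spanned the 257 to 403 CPM of all later libraries, so a difference from 0 h was not detectable (trend -0.48, adjusted p = 0.269). Of the 58 genes 10 had 0 h replicates at least 0.5 log2 apart, against 21.1% of all genes.

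**Figure D3:**
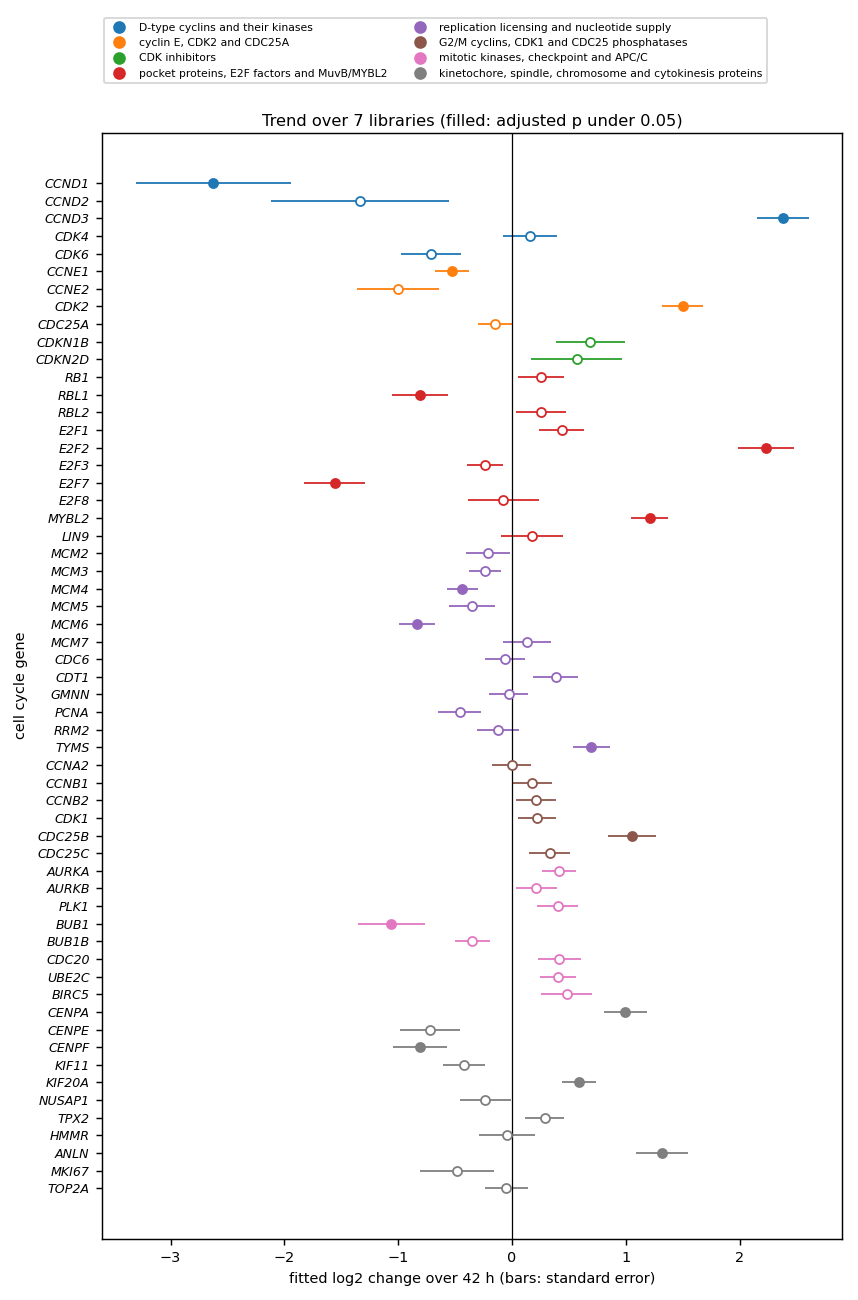
Fitted log2 change over 42 h (horizontal axis) for each of the 58 tested genes, coloured by role, with bars of 1 standard error; filled points have an adjusted p under 0.05 in edgeR's quasi-likelihood test over 7 libraries. CCND3 (2.38) and E2F2 (2.23) lie farthest right, CCND1 (-2.63) and E2F7 (-1.56) farthest left among the filled points, and 41 points are open.

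The number of genes that passed grew with time, as it did among all genes. With time as a factor in edgeR's quasi-likelihood test, 0 of the 58 passed against 0 h in the 4 h library (5.02% of all genes) and 0 in the 12 h library (9.68%). The number was 4 by 20 h (18.5%) and 6 by 28 h (20.3%). It reached 14 by 42 h (37.7% of all genes), 7 higher (19.9%) and 7 lower (17.8%). For both early libraries DESeq2 also gave 0. An unadjusted p under 0.05 was reached by 1 gene in each, CCND1 at 4 h (0.70 log2, adjusted p = 0.33) and E2F2 at 12 h (0.80 log2, adjusted p = 0.0885). At 20 h the 4 were E2F2 (1.48), CDC25B (0.85), BUB1 (-1.08) and CCNE2 (-1.33). DESeq2 gave 2 at 20 h. Curvature passed for 4 of the 58 (11.1% of all genes), CCND1, CCND2, CDKN1B and BUB1. With 1 library left out, that count ran from 0, without the 20 h or the 42 h library, to 4, and was 2 without 0 h replicate 1.

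Over the LDN dose at 5 h the question was which genes followed the level of BMP signalling. The trend here is the log2 change from 0 to 300 nM over 5 evenly spaced steps, so a negative value means a lower level when signalling is inhibited. Of 58 genes 9 passed, against 21.3% of all genes, 5 higher with LDN (10.4%) and 4 lower (10.9%). On library totals the split was 4 (9.55% of all genes) and 8 (11.9%). Only CDK6, HMMR and CCND2 passed with every library left out, and the other 6 lost the call in 3 to 5 of the 5 fits. With the untreated library added as the step after 300 nM, CDK6, HMMR and CCND2 no longer passed (adjusted p = 0.519, 0.306 and 0.183).

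CDK6 (ENSG00000105810, chr7:92604921-92836573) was at 56.9, 53.2, 46.2, 39.1 and 38.4 CPM at 0, 10, 30, 100 and 300 nM, and at 56.8 CPM in untreated cells. It fell at each step, by 35.5% over the fitted line (trend -0.63, SE 0.07, adjusted p = 2.58e-05). The untreated level was that of the library with BMP4 and IWP2 and no LDN, so the order of the doses did not extend to untreated cells.

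HMMR (ENSG00000072571, chr5:163460203-163491941), a spindle protein and hyaluronan receptor, was at 163, 144, 133, 126 and 121 CPM, with 147 CPM untreated. It too fell at each step (25.2% over the line, trend -0.42, SE 0.05, adjusted p = 6.08e-05), and untreated cells lay between the 0 and 10 nM levels on this scale. In FPKM it was at 69.48, 62.09, 55.44, 56.97 and 51.09, so not lower at each step. Over time HMMR had a trend of -0.04 (adjusted p = 0.908). CCND2 shares 999 exonic bases on its own strand with ENSG00000285901, a gene at up to 10.4 CPM in the dose response. In TMM-scaled CPM CCND2 rose with LDN at each step, at 70.2, 82.3, 87.7, 89.1 and 91.4 CPM, with 83.6 CPM untreated (26.6% over the line, trend 0.34, SE 0.07, adjusted p = 0.00271). In FPKM it was at 11.84, 14.01, 16.35, 15.86 and 16.08, so not higher at each step. With limma on FPKM 0 of the genes were called higher with LDN. Without the 0 nM library the CCND2 trend was 0.19 (adjusted p = 0.0488).

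The other 6 changed by smaller amounts. RBL2 was at 31.8, 31.5, 27.5, 26.9 and 27.1 CPM, 26.8 untreated (trend -0.28, adjusted p = 0.0277), and KIF20A at 125, 125, 122, 117 and 113 CPM, 119 untreated (-0.15, adjusted p = 0.0245). Both were higher where signalling was less inhibited. CDC25B was at 24.7, 26.6, 28.1, 28.2 and 29.8 CPM, 34.8 untreated (0.25, adjusted p = 0.0314), and CDKN1B at 29.1, 29.1, 31.0, 31.2 and 34.4 CPM, 26.5 untreated (0.23, adjusted p = 0.038). For CDC25B the untreated library lay beyond the 300 nM end and for CDKN1B beyond the 0 nM end. CDT1 was at 88.5, 103, 104, 104 and 106 CPM, 72.9 untreated (0.21, adjusted p = 0.0422), and PLK1 at 175, 180, 191, 185 and 197 CPM, 227 untreated (0.16, adjusted p = 0.0263). CDT1 lost its call without the 0 nM library (0.04, adjusted p = 0.669), the only dose that stood apart.

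CDKN2C again showed the widest range. It had 37, 15, 15, 4 and 4 counts at 0, 10, 30, 100 and 300 nM and 0 of 15600931 counts untreated, where a count of 0 allows up to 3. With BMP4 and IWP2 and no LDN it was 10.5-fold the 300 nM level (95% interval 3.79 to 40.7, exact binomial, counting error only) and at least 6.31-fold the untreated level, taken at that limit of 3 counts. Fitted with no filter, its dose trend was -3.44 (SE 0.65, adjusted p = 9.55e-05, edgeR, 31851 genes tested).

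**Figure D4:**
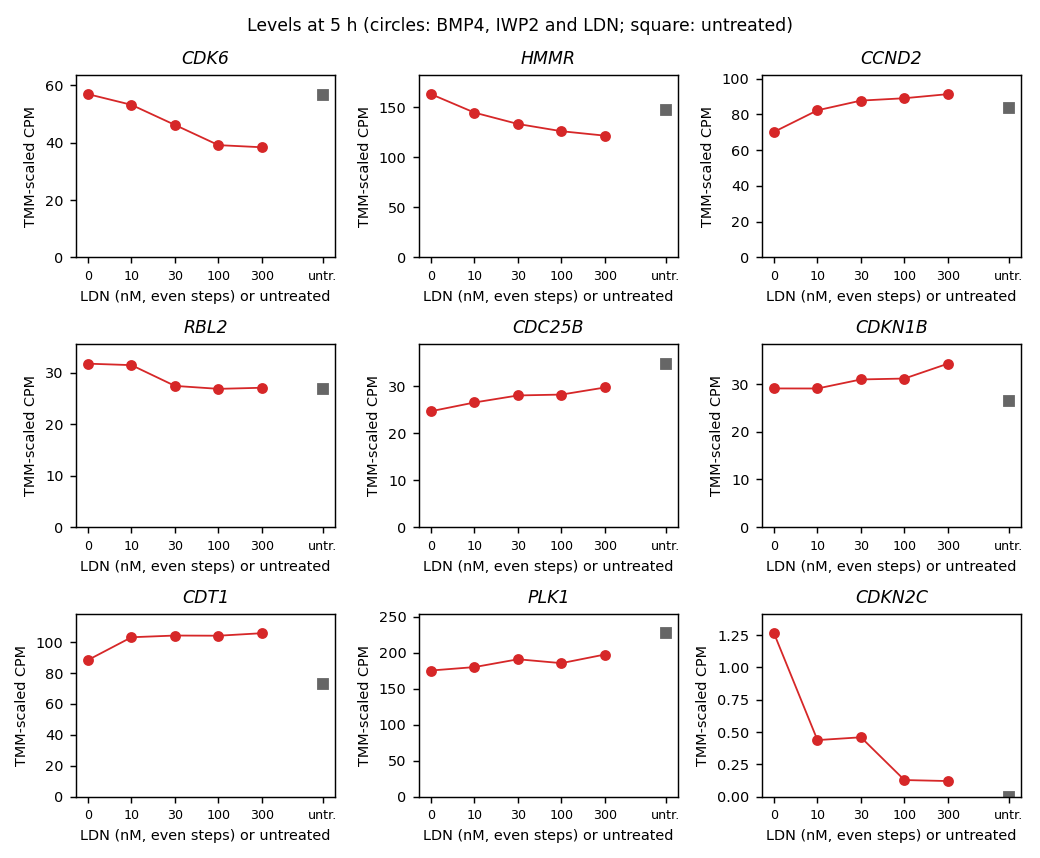
TMM-scaled CPM at 5 h (vertical axis, from 0) for 9 genes against LDN dose in nM, drawn as even steps (circles, with BMP4 and IWP2), and in untreated cells (square). CDK6 and HMMR step down and CCND2 steps up with LDN, while CDKN2C drops from 37 counts at 0 nM to 4 at 300 nM and 0 untreated.

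The comparisons with untreated cells are ratios of 2 libraries, with no replicate. The libraries compared differ in both BMP4 and IWP2, whose parts cannot be told apart. With BMP4 and IWP2 and no LDN, 2 of 58 genes lay at least 0.5 log2 from untreated, against 25.9% of all genes. These were E2F2 (9.17 against 5.48 CPM, 0.74) and BUB1 (181 against 271 CPM, -0.58). At 300 nM LDN, with BMP4 and IWP2, 2 genes lay that far, against 16.3% of all genes: CDK6 (-0.56) and CDT1 (0.54). The untreated library had the lowest total and the highest mitochondrial share, and their part in these ratios was not tested. E2F2 and BUB1 lay on the same side of the 0 h mean at 4 h, at 19.5 CPM and 146 CPM (0.49 and -0.16 log2), and neither passed there. BUB1 was at 179 to 197 CPM in all libraries with BMP4, whatever the LDN dose, and its dose trend did not pass (0.12, adjusted p = 0.0658, edgeR). E2F2 was at 6.69 CPM at 300 nM, and its dose trend did not pass either (-0.40, adjusted p = 0.0875). Over all 58 genes, 37 had the same sign at 4 h over 0 h and at 5 h over untreated, against 65.7% of all genes.

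Other genes of the cell cycle, 90 taken from lists of S-phase genes, G2/M genes and regulators, were also counted. Of 89 tested over time, 16 rose and 16 fell, against 19.2% and 17.5% of all genes. At 42 h against 0 h the split was 16 higher and 6 lower (19.9% and 17.8% of all genes), with 6 higher and 0 lower among the G2/M genes. Among 32 S-phase genes 3 rose and 8 fell, among 32 G2/M genes 7 rose and 4 fell, and among 25 regulators 6 rose and 4 fell. The largest rises were in CDKN2B (0.21 and 0.23 CPM at 0 h, 9.16 CPM at 42 h), which encodes the CDK4 and CDK6 inhibitor p15, in CCNG2, a cyclin linked to cell cycle arrest (12.5 and 12.8 to 177 CPM), and in CDKN1C, which encodes p57 (11.8 and 19.3 to 125 CPM). Their trends were 5.63, 3.91 and 2.17 log2 (adjusted p = 0.000358, 0.000124 and 0.0401). The largest falls were in the E2F partner TFDP2 (-1.68), the checkpoint kinase CHEK2 (-1.07) and the origin-firing kinase CDC7 (-1.04), with adjusted p = 0.00322, 0.0129 and 0.00253.

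Over dose 7 of 88 such genes were higher with LDN and 10 lower, against 10.4% and 10.9% of all genes. CCNG2 was at 22.0, 17.7, 16.1, 14.8 and 12.3 CPM over the doses and 9.43 CPM untreated (trend -0.77, adjusted p = 9.52e-05), and CDKN1C at 23.9, 24.6, 23.7, 19.5 and 14.4 CPM, 7.69 CPM untreated (-0.70, adjusted p = 0.0039). Both ran in order through to the untreated library from 10 nM on. The phosphatase gene CDC14B fell by 0.74 log2 with LDN (adjusted p = 1.36e-05). SLBP, which binds histone mRNA, CHAF1A, a histone chaperone subunit, and CKS2, a CDK subunit, were higher with LDN by 0.34, 0.23 and 0.22 log2 (adjusted p = 0.00284, 0.00144 and 0.0223).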

How the data were processed

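Bulk RNA-seq of 13 libraries was used. Per the submitters' processing notes, alignment used STAR 2.7.8a on GRCh38 and RSEM 1.3.3 gave the count estimates, after trimming with Cutadapt. The deposited expected counts are whole numbers per gene, not scaled for depth. The deposited FPKM are the authors' values per gene length and depth, and served to order levels between genes and for 1 alternative. Strand use and the annotation release are not given in the sources used here. Of the features, 5 were not human genes and were left out (at most 0.00301% of counts).

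Counts were tested with edgeR 4.0.16 (TMM, quasi-likelihood test, Benjamini-Hochberg over all genes tested, threshold 0.05) in R 4.3.3, for genes whose mean reached 1 CPM: 15976 over time and 14907 over dose. The time trend used hours, the curvature hours and their square, and the dose trend even steps over the 5 libraries with BMP4. No later time and no dose had a replicate, so scatter about the line was the error. With time as a factor it was the 0 h pair, largely pooled over genes and assumed to hold for each lone library. Such p-values are therefore not evidence from replicates of the gene itself. The standard error at 42 h was 0.304 for E2F2 and 0.345 for MKI67, whose 0 h replicates differed by 0.01 and 0.94 log2. Standard errors are the log2 change over the root of F. Comparisons with the untreated library are ratios, read at 0.5 log2. Scripts were tested on simulated data. Depth gave a floor of 3 counts, 0.0421 to 0.192 CPM before TMM. Intervals cover counting error only.

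The members and lists were chosen with earlier results of these data known. Values in every library are given for the 10 called genes with the largest trend over time, up to 10 over dose, up to 6 with the largest curvature, and those under the minimum, and up to 3 other cell cycle genes per direction are named. CDK6 over time, MCM6, MKI67, CCNE2 and BUB1 and E2F2 against untreated cells were named after their values were seen. Positions are from GENCODE 44, and promoter windows from RefSeq (GRCh38.p14). Alternatives were DESeq2 1.42.0, limma 3.58.1 on log2(FPKM + 0.1), other scalings, filters and covariates, and leaving out each library.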

Additional observations from a re-analysis of the deposited data

How the results depend on the processing

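No paired analysis was possible because only the 0 h libraries carry replicate numbers. Time trend fits without the 42 h library or either 0 h replicate tested 59 genes, since CDKN2C then reached the minimum. Over time, the genes higher (9) ran from 7 to 14 with 1 library left out, and the genes lower (8) from 2 to 12, the lowest for both without the 42 h library and the highest without 0 h replicate 2. The genes lower were 15 on library totals, 14 with limma on FPKM and 4 with no filter. The trend of CCND1 did not pass on the order of the times (-2.14, adjusted p = 0.0674). CCND2, whose trend passed only with the DESeq2 test (-1.34), ran from -1.73 to 0.21 with 1 library left out, reversed without 42 h. The count for curvature (4) ran from 0 (without 20 h or 42 h) to 4 with 1 library left out, and the 4 calls at 20 h were 2 with DESeq2. Genes at least 0.5 log2 from 0 h, 25 of 58, were 31 without either 0 h replicate, alternatives chosen after seeing the data. Over dose, the genes higher (5) were 0 with limma on FPKM and 2 with the untreated library as the step after 300 nM, and ran from 2 to 3 with 1 library left out. The genes lower (4) were 8 on library totals, 2 with the DESeq2 test, 2 with limma and 0 with the untreated library, and ran from 2 to 5. CDT1 was reversed with the untreated library, at -0.12. The causes were not tested, beyond the fewer libraries in each fit that left one out. Against untreated cells, the 2 genes apart without LDN were 4 on DESeq2 size factors and 1 on library totals. The single libraries at later times and doses limit all of these results.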

Other observations

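The 0 h replicates differed in the cell cycle genes themselves. The median absolute difference was 0.24 log2 over the 58 genes, with 26 higher in replicate 1 and 32 in replicate 2. The widest gaps were in MKI67 (replicate 2 lower by 0.94 log2), E2F7 (0.69) and NUSAP1 (0.62), and in the other direction in CDKN2D (0.78), BIRC5 (0.59) and CDK4 (0.56). Across these genes, which are not independent replicates, the difference of replicate 2 over replicate 1 had a Pearson r of -0.66 with the log2 length of the longest transcript and 0.55 with its GC content, and the change over time had -0.36 and 0.39. These are descriptions of 58 genes in shared libraries.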
